A study of Mus musculus with 200 samples.

Results

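The allele ratios of 4728 autosomal genes were compared between F1 mouse embryos, in which every autosomal gene is heterozygous, and backcross (N2) embryos that were heterozygous at the gene in question. The members were the genes with 500 or more allele-informative votes in the F1 and 500 or more in the heterozygous N2 embryos, out of 21044 autosomal genes in the deposited tables. Of the other genes, 2451 fell short in N2 only, 170 in F1 only and 13695 in both, among them 5298 without a vote in either. Just inside the minimum lay Bbs4 with 500 F1 votes, at pooled B6 fractions of 0.366 in F1 and 0.393 in N2, and just outside it Tsg101 with 499.84 N2 votes, at 0.494 and 0.636. The strains were C57BL/6J (B6) and CAST/EiJ (Cast), an inbred strain derived from wild Mus musculus castaneus. All embryos were taken whole at embryonic day 11.5, free of extra-embryonic tissue, and no engineered allele or treatment is named for any group. With the mother written first, the F1 comprised 8 B6×Cast embryos from 2 litters and 8 Cast×B6 embryos from 2 litters. The N2 comprised 89 embryos of B6 mothers and F1 fathers (B6×F1, 17 litters) and 65 of F1 mothers and B6 fathers (F1×B6, 12 litters). Expression was measured with 3SEQ, an RNA-seq protocol that reads the 3′ ends of polyadenylated transcripts.

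In a heterozygote both copies of a gene share 1 nucleus and 1 set of regulatory proteins, so unequal transcript levels of the copies (allele-specific expression, ASE) reflect differences that act in cis, on the same DNA molecule. Factors that act in trans reach both copies, and shift the ratio only where the copies respond unequally. In an F1 embryo such factors come from both strains at every locus, whereas in an N2 embryo many loci carry B6 alleles only. Imprinted genes are a separate class: their active copy is set by the parent that transmitted it, not by its strain, so their allele ratio is read only beside the mother's identity. The comparison asked which genes changed allele ratio when part of the background became B6, and whether imprinted genes kept their parental pattern.

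The measure was the B6 allele fraction (BAF), the B6 votes divided by B6 plus Cast votes; a read that overlapped several strain-specific SNPs was split into fractional votes that add to 1 read. A BAF of 0.5 means equal levels and a BAF above 0.5 more transcript from the B6 copy. Across N2 embryos, 48.15% of gene and embryo pairs were coded B6/Cast, with 50.04% Cast votes over all such pairs. The B6/B6 pairs made up 51.33% and held 0.194% Cast votes, and 0.524% were not called. An N2 embryo was heterozygous at 48.2% ± 9.23 (SD, n = 154) of the autosomal genes, from 23.3% to 76.8%. Libraries held 15703888 to 38234229 reads in the F1 and 245220 to 5370322 in N2, and a member had a median of 5770 votes in F1 and 2128 in N2. Generation coincided with the sequencing run, read length, depth and litters, and with Cast from the mother also with the mother's genotype and mitochondria. Generation and these factors cannot be told apart. The F1 parents of N2 came from B6 mothers and Cast fathers, so all N2 embryos carry B6 mitochondria. Within N2, 13 of the 14 lanes, on 2 flowcells of 75 and 79 embryos, held embryos of only 1 cross. Markers of liver, blood, muscle, neurons and cartilage were detected in both generations, and those of placenta and decidua summed to at most 0.869 RPM (reads on the genes per 1000000 reads of the library) in an F1 embryo, with a median of 0 and a maximum of 22.9 RPM in N2.

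The overall balance of the 2 genomes differed between F1 and N2 by less than the spread among embryos. The median BAF over an embryo's genes averaged 0.50002 ± 0.00022 (SD, n = 16) in F1, between 0.49971 and 0.50059. In N2 it averaged 0.49995 ± 0.00317 (SD, n = 154), between 0.48857 and 0.51515. The N2 minus F1 difference of -6.83e-05 did not pass a two-sided permutation test (p = 0.887). In whole embryos a BAF averages over all cells that express the gene, so a change in which cells express it and a change within cells cannot be told apart.

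Individual genes did change. Each gene was tested by quasi-binomial regression of its votes, by embryo, on generation and the parent of the Cast allele. A gene was called at a Benjamini-Hochberg adjusted p under 0.05 over all members and a change of at least 0.05 in BAF, with the generations' BAFs averaged equally over both Cast parents. The BAF of each cross was taken from its votes summed over embryos. Of the 4728 members, 904 were called (19.1%), 455 with a higher BAF in N2 (9.62%) and 449 with a lower one (9.5%). The changes were mostly small: the median absolute change over all members was 0.0234, and 276 members moved by at least 0.1, 42 by at least 0.2 and 9 by at least 0.3. A stricter Bonferroni threshold of 0.01 left 331 of the calls (7.0%), edgeR's quasi-likelihood test on litter sums called 324 (6.85%), and a fit without the parent of the Cast allele called 926 (19.6%). Of the 904, 412 (45.6%) lay nearer to 0.5 in N2 than in F1, as did 2162 of all members (45.7%). In 313 called genes (34.6%), against 19.1% of all members, the higher allele was a different one in F1 and N2, although in only 25 of these did both BAFs lie at least 0.05 from 0.5. The minimum change of 0.05 in a call favours such a switch. Across genes the BAFs of the generations had a Spearman's rho of 0.815 and Pearson's r of 0.863, a description over 4728 genes that are not independent replicates and that share the same embryos.

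**Figure D1:**
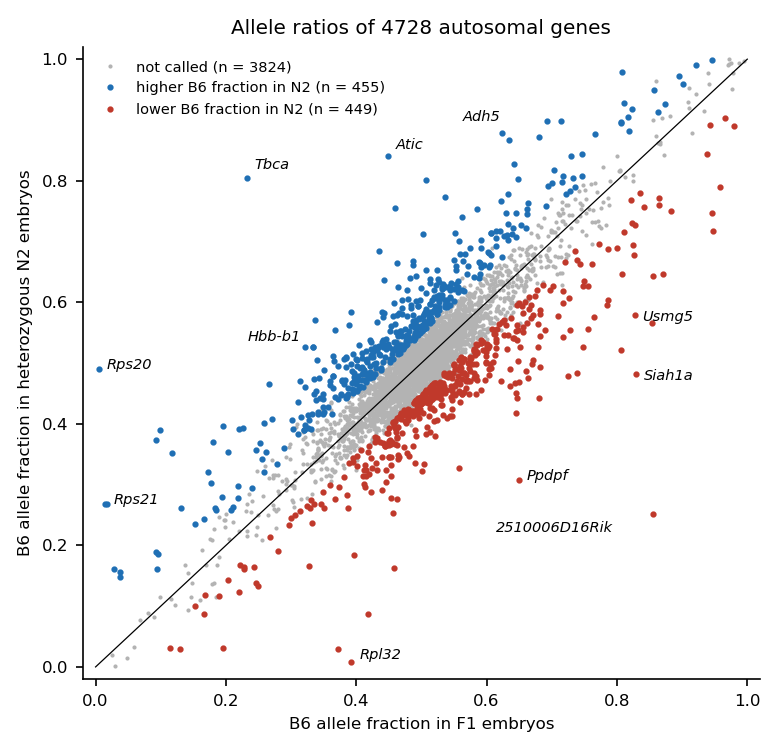
B6 allele fraction in N2 heterozygotes (vertical axis) against that in F1 (horizontal axis), both from 0 to 1, with 1 point per member gene and called genes in colour. Most of the 4728 genes lie near the diagonal, and the 455 genes called higher and 449 called lower in N2 lie on both sides of it.

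The direction of change was read separately for each parent of the Cast allele, in crosses that share no embryos. With Cast from the father (B6×Cast against B6×F1), 954 genes were called (20.2%), and with Cast from the mother (Cast×B6 against F1×B6), 623 (13.2%). The lists shared 327 genes, 34.3% of the former and 52.5% of the latter, and 309 of the 327 moved the same way. Of the 904 genes called over both parents, 877 moved the same way under each, against 3146 of all members (66.5%). The 904 were chosen on the average over both parents, which favours the same direction. At matched stage, with the 9 F1 embryos of the litters at 46 to 50 somites and 112 N2 embryos of 46 to 52 somites, 878 genes were called (18.6%). With the members put into 4 equal classes by their smaller vote total, the called share was 22.5% in the lowest and 13.9% in the highest, and per chromosome it ran from 11.6% on chromosome 19 to 23.1% on chromosome 10.

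The largest changes toward the B6 allele were in genes of varied function. Tbca, a chaperone that folds β-tubulin (chromosome 13, 95558898 to 95612854, mm9), had F1 BAFs of 0.114, 0.216 and 0.815 as the lowest, median and highest of 16 embryos, and N2 BAFs of 0.545, 0.818 and 1 over 59 embryos. The ranges overlapped because 2 Cast×B6 embryos, at 0.773 and 0.815, lay among the N2 values while the other 14 F1 embryos lay below all of them. Averaged over both Cast parents, the BAF rose from 0.233 to 0.804, a change of 0.571 ± 0.0235 (SE, adjusted p = 1.01e-33). The more abundant copy thus switched from Cast to B6. Atic, which catalyses the last steps of purine synthesis, rose from 0.449 to 0.841 (0.393 ± 0.0145; adjusted p = 8.53e-37). Its F1 embryos spanned 0.369 to 0.553 around a median of 0.459, and 69 of 70 N2 embryos, with a median of 0.871, lay above all of them. Rps20, a protein of the small ribosomal subunit, had almost no B6 votes in F1, with BAFs of 0, 0 and 0.0526 (lowest, median, highest, n = 14). In N2 it was close to even, with 0.167, 0.494 and 0.667 (n = 35). Of its 3124 N2 votes, 2963 came from flowcell 1, and its median on flowcell 2 was 0.354 over 7 embryos. Its F1 and N2 embryos did not overlap. Few reads were informative for it, 1.05 votes per 100 reads in F1 against 14.9 on flowcell 1 and 3.25 on flowcell 2.

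Rps21 (chromosome 2, 179992082 to 179993150) encodes a protein of the small ribosomal subunit. Its F1 BAFs ran from 0.0041 through a median of 0.00939 to 0.0289 (n = 16), and its N2 BAFs from 0.0463 through 0.241 to 0.412 (n = 80). All 80 N2 embryos thus lay above all F1 embryos. The change averaged over both Cast parents was 0.252 ± 0.00737 (adjusted p = 4.2e-64). Its N2 level also differed between lanes, whose median BAFs ran from 0.0825 to 0.361 on flowcell 1 and from 0.174 to 0.261 on flowcell 2. Mir3091, listed on the same chromosome and strand, had N2 per-embryo BAFs with the same lowest, median and highest values as Rps21 and is not an independent case.

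Adh5, which oxidizes formaldehyde bound to glutathione, rose from 0.623 to 0.878, but the pooled BAF was 0.696 on flowcell 1 and 0.897 on flowcell 2, so that the flowcells differed by almost as much as the generations. Tbc1d17, a GTPase-activating protein for Rab GTPases, rose from 0.537 to 0.774, and 59 of 64 N2 embryos exceeded all 16 F1 embryos. Further genes among the 12 largest changes toward B6 were Reep3 (0.506 to 0.802), which clears endoplasmic reticulum from mitotic chromosomes, Tmem138 (0.459 to 0.755), a gene for primary cilia, Tmem87a (0.0987 to 0.39) and the septin Sept1 (0.434 to 0.685). For these 4 genes the F1 and N2 embryos overlapped, with 26 of 38, 64 of 76, 31 of 51 and 27 of 64 N2 embryos above every F1 embryo.

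**Figure D2:**
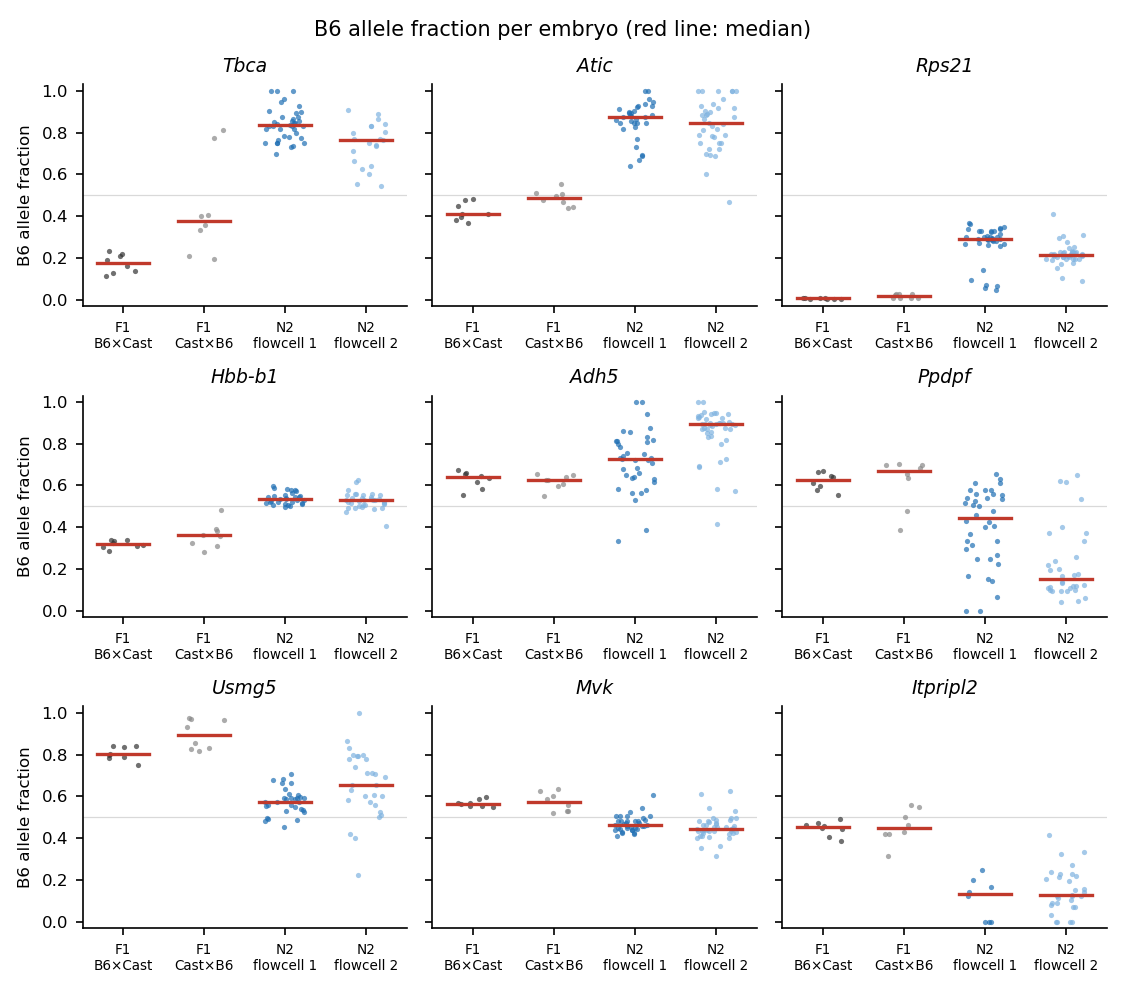
B6 allele fraction per embryo (vertical axis, 0 to 1) for 9 genes, with 1 point per embryo that had at least 5 votes, grouped as F1 B6×Cast, F1 Cast×B6, N2 flowcell 1 and N2 flowcell 2. Every N2 point of Rps21 lies above all F1 points, whereas those of Adh5 and Ppdpf lie at different levels on the 2 flowcells.

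The largest changes toward the Cast allele included mitochondrial, ubiquitin and lipid genes. Usmg5, a small subunit of the mitochondrial ATP synthase, had F1 BAFs of 0.752, 0.833 and 0.976 (lowest, median, highest; n = 16) and N2 BAFs of 0.225, 0.593 and 1 (n = 60). Of the N2 embryos, 51 lay below every F1 embryo. Averaged over both Cast parents, the BAF of Usmg5 fell from 0.827 to 0.579 (-0.248 ± 0.0163, adjusted p = 3.3e-26). Itpripl2, which encodes a protein related to an inositol trisphosphate receptor interactor, fell from 0.458 to 0.163 (-0.294 ± 0.0208; adjusted p = 2.34e-20). Its F1 embryos lay between 0.315 and 0.561, near balance, and 35 of its 38 N2 embryos lay below all of them. Siah1a, a ubiquitin ligase, fell from 0.83 to 0.483, Pgs1, an enzyme of cardiolipin synthesis, from 0.854 to 0.565, and Asnsd1 from 0.806 to 0.522. These 3 genes were thus biased to B6 in F1 and close to even in N2, with 31 of 34, 45 of 50 and 33 of 45 N2 embryos below all F1 embryos. Mrpl27, a protein of the large mitochondrial ribosomal subunit, likewise fell from 0.725 to 0.479. AK010878, a gene known by its transcript, fell from 0.739 to 0.484, with a pooled BAF of 0.65 on flowcell 1 and 0.441 on flowcell 2.

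Technical measures differed for most of these genes. Over F1 and the flowcells, votes per read differed by 1.94-fold for Siah1a, 3.77-fold for Pgs1, 1.68-fold for Asnsd1, 2.05-fold for AK010878 and 1.82-fold for Mrpl27, whose expression also differed, at 13.5 RPM in F1 and 33.1 RPM in N2. The same fold over all members had a median of 1.6 and an upper quartile of 2.16, which among these genes only Pgs1 exceeded. The largest change toward Cast, 2510006D16Rik, fell from 0.855 to 0.252 (-0.603 ± 0.0298; adjusted p = 3.54e-27), and had 0.85 votes per 100 reads in F1 against 3.53 and 3.67 on the flowcells. Ppdpf, a gene named for pancreatic progenitor differentiation, fell from 0.649 to 0.308, while its BAF was 0.471 on flowcell 1 and 0.208 on flowcell 2 and its lane medians ran from 0.125 to 0.616. For Rpl32, Ndufs5 and Trp53i11, the embryos coded B6/B6, which lack a Cast copy, nevertheless held 50%, 18.3% and 15.2% Cast votes. Rpl32 (0.393 to 0.00765) was measured per embryo in only 18 N2 embryos, and 779 of its 785 N2 votes came from flowcell 1. With flowcell 2 alone, on the few votes left, its change was 0.107, in the opposite direction (adjusted p = 0.885). Its expression was 39.2 RPM in F1 and 667 RPM in N2. The part of these measures in the changes was not tested.

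Over all members, the called share was higher where such measures differed. Votes per read differed at least 3-fold among F1 and the 2 flowcells in 584 members, of which 138 were called (23.6%). Expression differed at least 2-fold between F1 and N2 in 343, of which 105 were called (30.6%). More than 1% Cast votes in B6/B6 embryos were found in 144, of which 44 were called (30.6%). Within N2, where no difference of generation exists, the flowcells differed in 496 members (10.5%; 370 on litter sums, 7.83%), by the thresholds used for generation. Lanes within flowcells differed in 774 (16.4%) by adjusted p alone, without a minimum difference. By adjusted p alone, generation gave 1573 members (33.3%). Of the flowcell and lane calls, 199 and 235 were among the 904. With the votes of N2 summed per lane, 657 of the 4728 members were called between generations (13.9%). Both flowcells lay on the same side of F1 in 845 of the 904, and in 3237 of all 4728 members (68.5%). The 904 were chosen on the N2 value over both flowcells, which favours the same side.

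A steadier set was formed from 1779 members whose votes per read stayed within 1.5-fold, whose expression stayed within 2-fold and whose B6/B6 embryos held under 1% Cast votes. In this set 278 were called (15.6%), 137 toward B6 and 141 toward Cast, and the flowcells were not called apart in 221 of them. At least 0.1 was reached by 59. Of the 24 largest changes, 12 each way, the set kept 6, among them Tbca, Rps21, Mir3091, Itpripl2 and Usmg5. The flowcells differed at an adjusted p under 0.05 for Tbca, Rps21 and Mir3091, and not for Itpripl2 or Usmg5.

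Genes were then grouped by function. Among 25 cytosolic ribosomal protein genes, the structural proteins of the ribosome, 9 rose and 5 fell, 56% against 19.1% over all members, with a median absolute change of 0.0771 against 0.0234. Besides Rps20, Rps21 and Rpl32, the gene Rpl9 rose from 0.442 to 0.637 (adjusted p = 6.92e-14). Genes of this class have many processed pseudogenes, near-identical copies elsewhere in the genome, and their part in these BAFs was not tested. Among 48 mitochondrial ribosomal protein genes 5 rose and 8 fell (27.1%). Mrpl9 fell from 0.643 to 0.467 at similar BAFs on the flowcells (0.452 and 0.488). Mrpl18 rose from 0.0287 to 0.161 on the strength of flowcell 1 alone, where its BAF was 0.225, against 0.0108 on flowcell 2.

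Among 37 subunits of oxidative phosphorylation, the respiratory chain and ATP synthase, 5 rose and 6 fell (29.7%). Cox6c, of cytochrome c oxidase, fell from 0.948 to 0.717 and Ndufs6, of complex I, from 0.87 to 0.647, both with a B6 bias that was smaller in N2. The flowcells differed for both genes, for Ndufs6 at 0.611 and 0.796. Among 22 DNA replication genes 4 rose and 4 fell (36.4%). Prim2, the large primase subunit, rose from 0.704 to 0.817 (0.113 ± 0.0223; adjusted p = 4.55e-05), and Gins1, of the replicative helicase, fell from 0.572 to 0.47 (-0.101 ± 0.0197; adjusted p = 2.51e-05). Rfc4, of the clamp loader, rose from 0.337 to 0.57, but a single Cast×B6 embryo, the lowest of litter 1 at 0.147, supplied 73.9% of its F1 votes, and the plain means of the embryos differed by only 0.101. The call for Rfc4 was lost with N2 flowcell 1 alone (adjusted p = 0.279) and at matched stage (0.269).

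**Figure D3:**
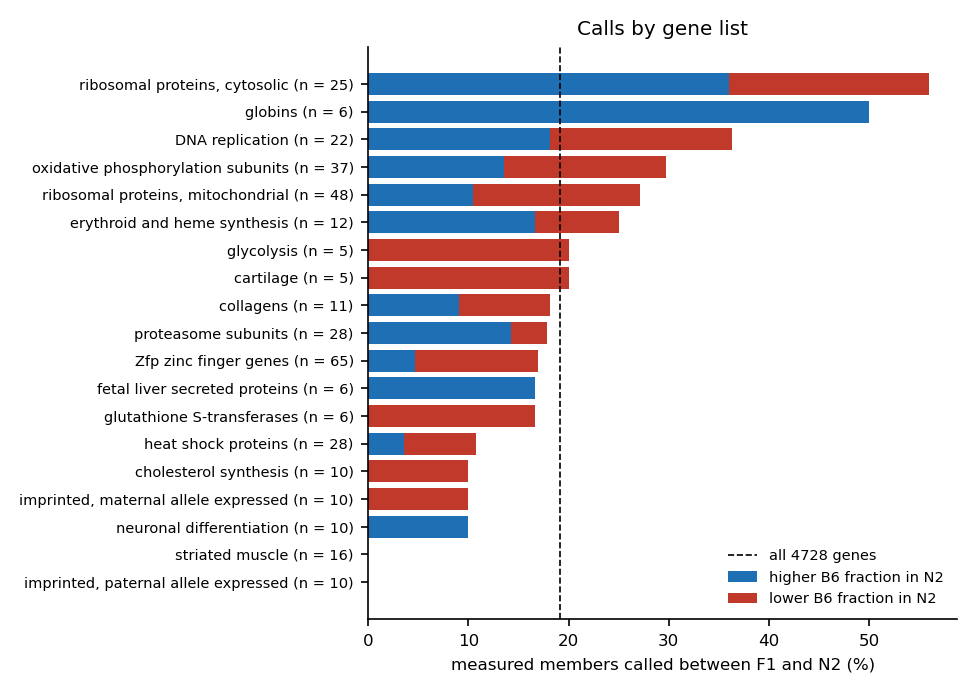
Share of the measured members of each gene list with at least 5 members that was called between F1 and N2 (horizontal axis, in percent), split by colour into higher and lower B6 fraction in N2, with a dashed line at the 19.1% of all members. Cytosolic ribosomal proteins reach 56%, whereas none of the 16 striated muscle genes was called.

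Of the 6 globin genes, which encode the oxygen carriers of embryonic blood, 3 were called, all higher in N2 (50%, against 19.1% over all members), but they hold only 2 separate measurements. The adult β-globins Hbb-b1 and Hbb-b2 rose from 0.333 to 0.526 (0.193 ± 0.00814; adjusted p = 8.82e-42). Their F1 embryos had BAFs of 0.281, 0.331 and 0.483 (lowest, median, highest; n = 16) and their N2 embryos 0.407, 0.531 and 0.626 (n = 64), so the Cast bias of F1 was absent in N2. Hbb-b1 and Hbb-b2 are near-identical neighbours with the same values in every embryo and count as 1 measurement. The paper reports allele ratios of these genes that shift with somite number in opposite directions, which values shared by both cannot show. Expression of Hbb-b1 was 1730 RPM in F1 and 3374 RPM in N2, and its BAF was 0.533 on flowcell 1 and 0.518 on flowcell 2. The embryonic globin Hbb-bh1 was called with BAFs, averaged over both Cast parents, of 0.632 and 0.702 (adjusted p = 0.00663). However, 86549 of its 93271 F1 votes came from litter 1 of Cast×B6. The plain means of the embryos had the opposite order, 0.674 in F1 and 0.628 in N2. The call for Hbb-bh1 was lost without litter 1 of Cast×B6 (change 0.0196, adjusted p = 0.521), without litter 5 of B6×Cast (0.00962) and on litter sums (adjusted p = 0.0812). Another embryonic globin, Hbb-y, changed by only 0.0203 (adjusted p = 1.12e-09), below the minimum of a call.

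Of 12 erythroid and heme genes, Cpox, an enzyme of heme synthesis, rose from 0.338 to 0.44 and the iron carrier Slc25a37 from 0.404 to 0.459, while the erythroid transcription factor Nfe2 fell from 0.424 to 0.327. The Cpox call was lost with Cast from the father only (0.0218, adjusted p = 0.513), with N2 flowcell 2 alone (0.521) and by edgeR on litter sums (0.613), and the plain embryo means differed by 0.0477. The Slc25a37 call was lost with Cast from the father only (adjusted p = 0.46), by edgeR (0.319), with flowcell 1 alone (0.662) and without litter 1 of Cast×B6 (change 0.0467), with plain means differing by 0.0289, and that of Nfe2 with Cast from the mother only (adjusted p = 0.0811) and by edgeR (0.0712). For Cpox and Nfe2 the lanes within flowcells differed (adjusted p = 0.00033 and 4.5e-08). In the fetal liver list, Ttr, the carrier of thyroid hormone and retinol-binding protein, was the only called gene of 6. It rose from 0.52 to 0.588 (0.0677 ± 0.00686; adjusted p = 3.61e-17), at 0.593 and 0.584 on the flowcells. In the neuronal list Mapt, which encodes the microtubule protein tau, was the only one of 10, from 0.513 to 0.585, though not with Cast from the mother only (adjusted p = 0.0733).

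Metabolic and structural lists held single calls. Mvk, the mevalonate kinase of cholesterol synthesis, fell from 0.568 to 0.46 (-0.109 ± 0.00696; adjusted p = 4.83e-27), the only one of 10. Its F1 embryos ran from 0.52 to 0.635 and its N2 embryos from 0.318 to 0.625, so that the higher allele was B6 in F1 and Cast in N2 on average. Gstz1, which acts in tyrosine breakdown, fell from 0.246 to 0.139 (-0.108 ± 0.0051; adjusted p = 1.8e-34), the only one of 6 glutathione S-transferases. The flowcells differed for Gstz1 at an adjusted p under 0.05. Ldhb, a lactate dehydrogenase subunit, fell from 0.786 to 0.688, the only one of 5 glycolysis genes, but not by edgeR (adjusted p = 0.173), and the plain embryo means of Ldhb differed by -0.0429. The cartilage collagen Col11a1 fell from 0.785 to 0.595, but only on flowcell 2, where its BAF was 0.541 against 0.787 on flowcell 1, and the plain embryo means of Col11a1 differed by -0.0426. The fibrillar collagen Col5a2 rose from 0.477 to 0.621, which was not called with flowcell 1 alone (adjusted p = 0.0664).

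Of 28 proteasome genes 4 rose and 1 fell (17.9%). Psmd7, of the regulatory particle, rose from 0.409 to 0.516 with 0.517 and 0.514 on the flowcells, whereas the rise of Psmd8 (0.464 to 0.625) was not seen on flowcell 1, at 0.473. Of 65 zinc finger genes of the Zfp series 3 rose and 8 fell (16.9%). Zfp568 rose from 0.36 to 0.47, Zfp663 from 0.336 to 0.449, and Zfp12 fell from 0.604 to 0.49, all 3 nearer to balance in N2. The call was lost with 1 parent alone for Zfp12 (father, adjusted p = 0.151) and Zfp663 (mother, 0.125), for Zfp12 with flowcell 2 alone (0.113) and for Zfp663 at matched stage (0.0532). Of 28 heat shock and co-chaperone genes 1 rose and 2 fell (10.7%), with Dnajc2, a chaperone at the ribosome, rising from 0.0379 to 0.157 (0.119 ± 0.00635; adjusted p = 2.02e-32). The flowcells differed for Dnajc2 at an adjusted p under 0.05, with plain embryo means of 0.166 on flowcell 1 and 0.124 on flowcell 2. Of 3 Hox genes, which set position along the body axis, Hoxb1 fell from 0.668 to 0.574, a call lost with either parent alone (adjusted p = 0.107 and 0.0784), with flowcell 2 alone (0.17), at matched stage (0.0965) and by edgeR (0.183). None of 16 striated muscle genes was called in the quasi-binomial test, although 6 had an unadjusted p under 0.05. The 2 lens crystallins and the single histone member were not called either, with 0 at that unadjusted p. The MHC and the placenta lists had no member.

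Imprinted genes kept their parental pattern. Of the 20 members drawn from the imprinted lists, 17 had a BAF that depended on the parent of the Cast allele in F1 and also in N2. The difference between the reciprocal crosses had a median of 0.986 in F1 and 0.987 in N2 and exceeded 0.9 in 11 genes in each. Igf2, the growth factor expressed from the father's copy, had BAFs of 0.01 with Cast from the father and 0.997 with Cast from the mother in F1, and 0.00643 and 0.994 in N2. The neighbouring noncoding RNA H19, expressed from the mother's copy, had 0.981 and 0.00118 in F1 and 0.998 and 0.0047 in N2. Meg3, a noncoding RNA from the mother's copy on chromosome 12, had 0.996 and 0.00785 in F1 and 0.998 and 0.00801 in N2. Igf2, H19 and Meg3 were therefore close to monoallelic in both generations and both directions of cross.

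Partial parental biases were also kept. Dlk1, a Notch-like ligand from the father's copy, had BAFs of 0.0577 (Cast father) and 0.902 (Cast mother) in F1 and 0.0629 and 0.912 in N2. Asb4 had 0.844 and 0.066 in F1 and 0.82 and 0.0674 in N2, and H13 had 0.663 and 0.225 in F1 and 0.699 and 0.236 in N2. Inpp5f, a phosphoinositide phosphatase, had 0.12 and 0.813 in F1 and 0.119 and 0.783 in N2. The smallest parental differences of the 17 were those of Trappc9, at 0.0987 in F1 and 0.143 in N2. In none of the 17 did the parental difference change between generations (interaction, quasi-binomial, adjusted p under 0.05 in 0 genes and unadjusted p under 0.05 in 3), and the largest change of it was 0.0442.

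Between generations, 1 of the 17 was called. Blcap, which neighbours the imprinted Nnat and favours the mother's copy, fell from 0.529 to 0.468 (-0.0611 ± 0.00985; adjusted p = 3.64e-07), with 0.769 and 0.289 in F1 and 0.715 and 0.222 in N2. Mest, H19, Cdkn1c and Trappc9 passed the adjusted p with changes under 0.05. The median absolute change of the 17 was 0.00481. Without regard to the mother the picture differed. Pooling weights each cross by its votes. The N2 crosses are unequal in size (89 and 65 embryos), and for some genes the F1 crosses were unequal in votes. Meg3 had 82135 (Cast father) and 32035 (Cast mother) votes in F1, against 28524 and 28784 in N2. The BAF of 12 of the 17, pooled over crosses, differed by at least 0.05 between F1 and N2, with a maximum of 0.261. No parent effect was called in F1 and N2 for Tssc4, Nap1l4 or Dcn, which had F1 BAFs of 0.479, 0.472 and 0.568.

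**Figure D4:**
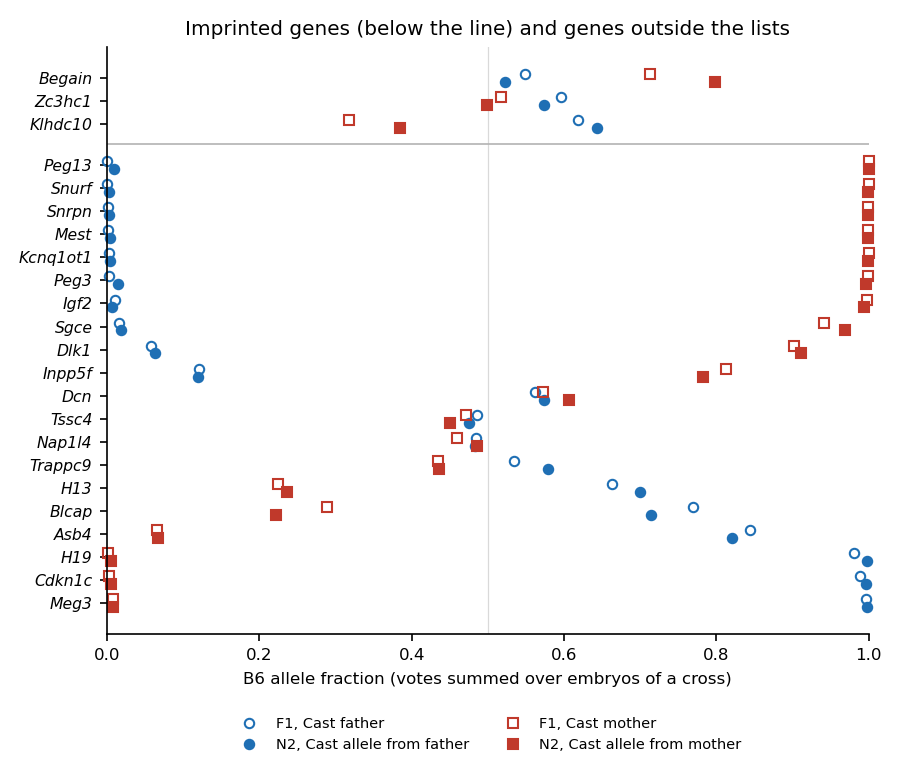
B6 allele fraction (horizontal axis, 0 to 1) by parent of the Cast allele and generation for the 20 imprinted-list members and, above a line, 3 other genes with a parent effect in both generations. For Igf2, H19 and Meg3 the points of F1 and N2 coincide near 0 or 1 and exchange ends with the parent of the Cast allele.

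Outside these lists, few genes depended on the parent of the Cast allele. In F1 106 members were called (2.24%), 89 of them outside, and in N2 77 (1.63%), 60 of them outside. With votes summed per litter only 5 of 21 in F1 and 10 of 27 in N2 lay outside. Of the 12 outside genes called in F1 and in N2, 8 had the same direction. Klhdc10, 268 kb from the imprinted Mest, had BAFs of 0.619 (Cast father) and 0.317 (Cast mother) in F1 and 0.644 and 0.384 in N2 and held on litter sums (adjusted p = 0.0204 in F1 and 2.2e-05 in N2). In Klhdc10 the mother's copy was the higher one in every cross.

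Parental differences were also found in 6 further genes. Zc3hc1, 333 kb from Mest, had BAFs of 0.595 and 0.517 in F1 and 0.574 and 0.499 in N2, again with the mother's copy higher relative to the reciprocal cross. Begain, 399 kb from Dlk1, went the other way, with 0.548 and 0.712 in F1 and 0.522 and 0.798 in N2, a higher share of the father's copy. The parental difference of Begain was larger in N2 than in F1 (interaction, quasi-binomial, adjusted p = 0.017). Id1, an inhibitor of basic helix-loop-helix factors 27.6 kb from H13, had 0.48 and 0.577 in F1 and 0.502 and 0.569 in N2. Sf3b5 of the spliceosome had 0.489 and 0.43 in F1 and 0.393 and 0.342 in N2, and Cdh15, the muscle cadherin, 0.423 and 0.495 in F1 and 0.357 and 0.453 in N2. Edn3, a ligand for neural crest cells, had 0.479 and 0.372 in F1 and 0.512 and 0.405 in N2. None of the 6 held on litter sums in F1, with adjusted p from 0.0635 for Zc3hc1 to 0.193 for Cdh15. On litter sums in N2, Begain (adjusted p = 3.28e-10), Sf3b5 (1.27e-07), Cdh15 (5.21e-05) and Zc3hc1 (0.012) held. Id1 (0.139) and Edn3 (0.0662) did not. With N2 votes summed per lane, Begain (0.000218), Sf3b5 (0.000264) and Cdh15 (0.00104) held. Zc3hc1 (0.0816), Id1 (0.543) and Edn3 (0.225) did not.

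By adjusted p alone, without a minimum difference, the parental difference itself changed between generations in 255 members (5.39%). It changed in 129 on litter sums (2.73%), and in 1 with N2 votes summed per lane (0.0212%). That gene was Srrm1, a splicing coactivator (lane-sum adjusted p = 0.0076). Its BAFs were 0.597 (Cast father) and 0.498 (Cast mother) in F1 and 0.479 and 0.543 in N2. Ndufa12, of complex I, had 0.104 and 0.416 in F1 and 0.52 and 0.278 in N2, but its pooled N2 BAF was 0.226 on flowcell 1 and 0.532 on flowcell 2. Since nearly all N2 lanes held a single cross, lane and parent of the Cast allele cannot be told apart here.

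Within N2 the extent of the B6 background varied among embryos, which allowed the question to be asked without the change of generation. Each gene's BAF was regressed on the share of the other autosomes that was heterozygous. No gene passed the adjusted p in this quasi-binomial test, in which 207 of 4728 genes had an unadjusted p under 0.05 (4.38%), and the smallest adjusted p was 0.554. Among the 904 genes called between generations the count was 48 (5.31%). Their median slopes, in logit units per 10 percentage points of heterozygous share, were -0.00547 for the genes higher in N2 and 0.00371 for those lower in N2. Both medians were small beside the spread, with quartiles of -0.0474 and 0.0343 for the former and -0.0378 and 0.0423 for the latter. The median slope over all members was -0.000144. The smallest unadjusted p was that of Nfasc, a cell adhesion protein of axons (0.000117). Of the 24 largest changes, Tmem87a alone had an unadjusted p under 0.05 (0.0219). A change too small for this range of backgrounds and this depth would not have been detected.

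**Figure D5:**
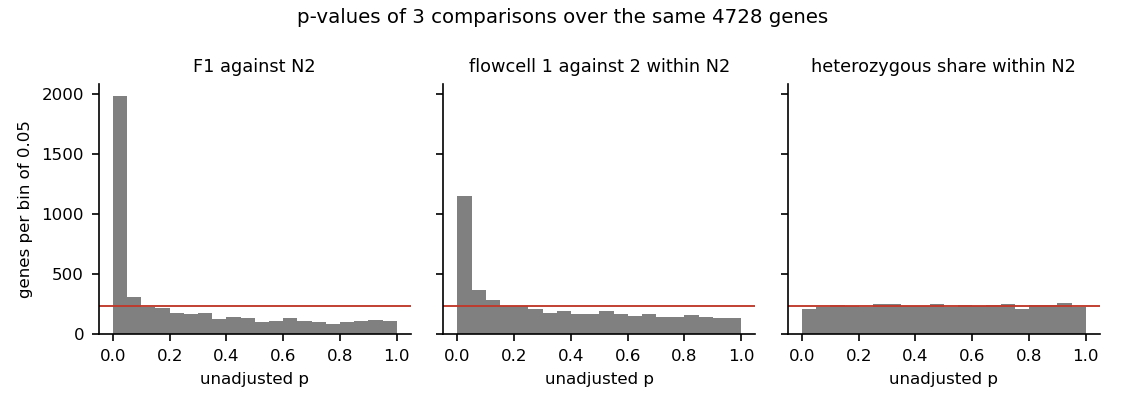
Histograms of unadjusted p-values over the 4728 members (number of genes against p) for generation, for flowcell within N2 and for heterozygous share within N2, with a red line at an even spread. Small p-values pile up for generation, where 41.9% are under 0.05, and for flowcell (24.4%), but not for heterozygous share (4.38%).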

How the data were processed

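3SEQ reads were aligned by the authors with Bowtie2 (version not given in the sources used here) to mm9 and an in silico Cast genome with RefSeq transcripts, and reads with several best matches were dropped. HiSeq reads of F1 were trimmed to the shorter GAIIx length, and the 2 runs of an embryo share 1 column. By the sample titles, both runs were HiSeq for litter 2 of Cast×B6, and GAIIx and HiSeq for the other F1 litters. The deposited tables hold the authors' read counts per gene on exons, allele votes per gene that the authors made as estimated counts (each read gives fractions over the SNPs it covers), and deposited genotype codes of another kind, in which 0.5 is heterozygous. RPM was computed here from the counts, as the mean over embryos, with N2 means over the heterozygous embryos of a gene.

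BAFs were tested by quasi-binomial logistic regression with a deviance F-test and a dispersion moderated over genes (R 4.3.3, limma 3.58.1; edgeR 4.0.16 for litter sums rounded to whole votes), after testing on simulated data, with Benjamini-Hochberg adjustment over all members. Embryos entered as replicates. p-values thus measure the spread among embryos, and litters were used as units in an alternative. Per-embryo values need 5 votes. Embryo medians used genes with 20 votes and 100000 permutations (scipy 1.17.1). Named genes were the 12 largest called changes each way, the imprinted lists, up to 3 called genes per other list, and 8 per further test. Members and lists were chosen with earlier results of these data known. Some items are not reported here. A total of 14 columns of each N2 table, without a cross or a genotype, were not used. Gene positions are from GENCODE (mm9), matched by symbol for 4700 members. Alternatives covered vote minimum, dispersion, threshold, parent term, flowcell, lane, stage, litter and tool.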

Additional observations from a re-analysis of the deposited data

Results flagged for a closer look

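In 14 of 191 sets of values, each of 1 gene in the F1 embryos of 1 cross, a single embryo lay apart from its group by Dixon's criterion at 95%, which flags about 1 in 20 groups by chance. In B6×Cast, 1 embryo of litter 5 was the lowest for H19 at 0.872 (next 0.998), for Meg3 at 0.968 (next 0.998) and for Rfc4 at 0.176 (next 0.455). Another of litter 5 was the highest for Blcap at 0.810 (next 0.772) and the lowest for Dcn at 0.518 (next 0.553), and a further one the highest for Rps20 at 0.0476 (next 0) and the lowest for Slc25a37 at 0.388 (next 0.43). The lowest for Nln, at 0.607 (next 0.738), belonged to litter 3.

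In Cast×B6, an embryo of litter 1 was the highest for Reep3 at 0.714 (next 0.505), another the highest for Meg3 at 0.0183 (next 0.00829), and a further one the lowest for Slc25a37 at 0.303 (next 0.359) and for Snurf at 0.99862 (next 1). In litter 2, 1 embryo was the lowest for AK010878 at 0.670 (next 0.764) and for Peg3 at 0.99742 (next 1).

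The 8 called genes with the smallest p in the interaction test were named for a difference in the parental effect between F1 and N2. This difference is mother minus father of the Cast allele, N2 minus F1. It was 0.162 for Srrm1, 0.271 for Lta4h, -0.554 for Ndufa12, 0.0738 for Ctdsp2, 0.179 for Gdi2, 0.422 for Mtif2, -0.256 for Ski and 0.239 for Irf2bp1. For Gdi2 1 embryo supplied 69.3% of the votes of a cross, and its plain embryo means were 0.822 and 0.760 in F1 (Cast father, Cast mother) and 0.629 and 0.609 in N2. For Ndufa12 1 embryo supplied 63.5% of a cross, with means of 0.097 and 0.432 in F1 and 0.546 and 0.372 in N2. With N2 votes summed per lane, the adjusted p of the 7 genes other than Srrm1 ran from 0.051 for Lta4h to 0.146 for Ski. Lane medians of Lta4h ran from 0.0551 to 0.487 on flowcell 1 and from 0.0441 to 0.467 on flowcell 2.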

How the results depend on the processing

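No paired analysis was possible because replicate numbers only name embryos. The count of 904 was 372 of 2381 genes at 2000 votes, 331 by Bonferroni at 0.01, 1573 without a minimum difference, 274 at a minimum of 0.1, 324 by edgeR on litter sums (323 of them among the 904), and, chosen after seeing the data, 330 of 1922 genes with votes per read within 1.5-fold and 289 of 1815 with RPM within 2-fold as well. It was 889 to 937 without each F1 litter. The other alternatives ran from 623 with Cast from the mother only to 1272 of 7906 genes at 100 votes. Parent effects in F1 (106) fell to 27 by Bonferroni and 21 on litter sums, those in N2 (77) to 28, 27 and, on lane sums, 22, and the interaction (255) to 28, 129 and, on lane sums, 1. The test of heterozygous share called 0 genes under each alternative, with 148 to 243 at an unadjusted p under 0.05. The difference in embryo medians kept a p of 0.246 to 0.896.

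Of 2183 values of named genes under alternatives, 2079 kept direction and side of the threshold, 94 lost their call, 4 gained one and 6 reversed. The reversals were Asb4 (0.233) and Mest (-0.143) without a parent term, Psmd8 (-0.000641) and Kcnq1ot1 (-0.00219) on flowcell 1 alone, and Rpl32 (0.107) and Mrpl18 (-0.0192) on flowcell 2 alone. The value for Rpl32 rested on few votes, since 779 of its 785 N2 votes came from flowcell 1. Hbb-bh1 lost its call without litter 1 of Cast×B6 (0.0196) or litter 5 of B6×Cast. Without litter 1 of Cast×B6 the calls of Slc25a37 and Hspa13 were lost too, and without litter 3 of B6×Cast or litter 2 of Cast×B6 that of Dnajc10. Some alternatives could not give a value for H19 and Snurf. The causes were not tested. Depth in N2 limits the precision of single-embryo BAFs. Read length and the number of informative reads differ between generations, and their part was not tested.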

Other observations

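Chosen after their values were seen, the 25 genes whose higher allele switched with both BAFs at least 0.05 from 0.5 included signalling and repair genes not described above. Smo, the transducer of Hedgehog signals, had a BAF of 0.573 in F1 and 0.449 in N2 (adjusted p = 0.000341), and Cblb, a ubiquitin ligase, 0.584 and 0.448 (6.63e-06). Mus81, a nuclease of DNA repair, had 0.432 and 0.567 (3.44e-13), and Pkn3, a protein kinase, 0.392 and 0.584 (3.96e-20). Loxl2, which crosslinks collagen, had 0.389 and 0.562 (1.16e-07). Of the 25, 12 rose and 13 fell in N2. These are adjusted p-values of the quasi-binomial test over all 4728 members.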
